A study of Homo sapiens with 6 samples.

Results

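The BCL2 family genes examined here were 10 of the 58735 genes in the count table, taken by name as a set of pro-apoptotic and anti-apoptotic members that includes BCL2L11, a known target of FOXO factors. All 10 were found by their Ensembl 94 symbols and all 10 passed the filter on low counts. RNA-Seq was performed on BT549 cells, an established human line of basal-like breast cancer. There were 3 libraries treated with the solvent DMSO and 3 treated with AS1842856. This small molecule binds unphosphorylated FOXO1 and hinders its direct binding to DNA. The study proposes that it modulates FOXO1 rather than only inhibiting it. Both groups were harvested after 48 h, and the labels name no other agent or genetic change in either. The labels give the dose as 200 nM, whereas the study's methods give a higher one, and the dose was not resolved here. Libraries held between 15289500 and 22981832 counts. Of the 14338 genes tested, 8029 differed at an adjusted p under 0.05 (edgeR), so a call alone is common in these libraries. The mesenchymal genes of the line were abundant, with VIM, SPARC, AXL, CDH2, FN1 and CD44 summing to between 4310 and 4447 CPM in DMSO and between 3747 and 3818 with AS1842856, while ESR1, PGR, CDH1 and EPCAM stayed under 0.5 CPM. The other 3 of 7 luminal and epithelial genes were not all low: GATA3 had a mean of 50.9 CPM in DMSO and 61.7 with AS1842856, ERBB2 46.8 and 25.0, and FOXA1 1.43 and 0.673, and the 7 summed to between 96.5 and 103.9 CPM in DMSO and between 84.5 and 90.9 with AS1842856. Among 5 markers of other cell types, CD3E had no counts. The summed level of the 5 ran from 0.754 to 1.63 CPM in DMSO and from 2.70 to 3.93 with AS1842856, mostly from PTPRC, and the part of any marker list in the results was not tested.

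BCL2 family proteins decide whether the outer mitochondrial membrane is opened during apoptosis. BAX and BAK1 form the pores that release cytochrome c. MCL1, BCL-xL (the main product of BCL2L1) and BCL2 hold them in check. The BH3-only proteins BIM (BCL2L11), PUMA (BBC3), NOXA (PMAIP1), BMF and BID occupy the protective proteins or activate the pore formers directly. FOXO factors are known to induce several BH3-only genes in other cells.

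With AS1842856 treatment, 3 BH3-only genes rose clearly, BCL2L1 fell, and MCL1 and BCL2 were not called. BCL2L11 rose 3.41-fold, BMF 3.40-fold and PMAIP1 1.81-fold, and BCL2L1 fell to 0.627 of its DMSO level. BAX and BAK1 were slightly higher and BID slightly lower. In all, 5 of the 10 members were called higher, where 27.6% of all genes tested were, and 2 were called lower, where 28.4% were. The sum of 7 called stands beside a background of 56.0%. DESeq2 called the same 7 members, where it called 36.8% of the 18482 genes it tested. That is a wider set than the 14338 genes behind the 56.0%, so the shares are not on the same genes. The groups were fully separated in 8 of the 10, which held for 59.9% of all genes. Of these 8, 5 lay above DMSO (29.5% of all genes did) and 3 below (30.3% did). Against a minimum fold of 1.2 (edgeR's glmTreat) 4 members were called, where 28.0% of all genes were, and these were BCL2L11, BMF and PMAIP1 upward and BCL2L1 downward. The background of that stricter call was 12.1% upward and 15.9% downward. The median log2 fold change was 0.12 over the members and 0.0030 over all genes tested.

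**Figure D1:**
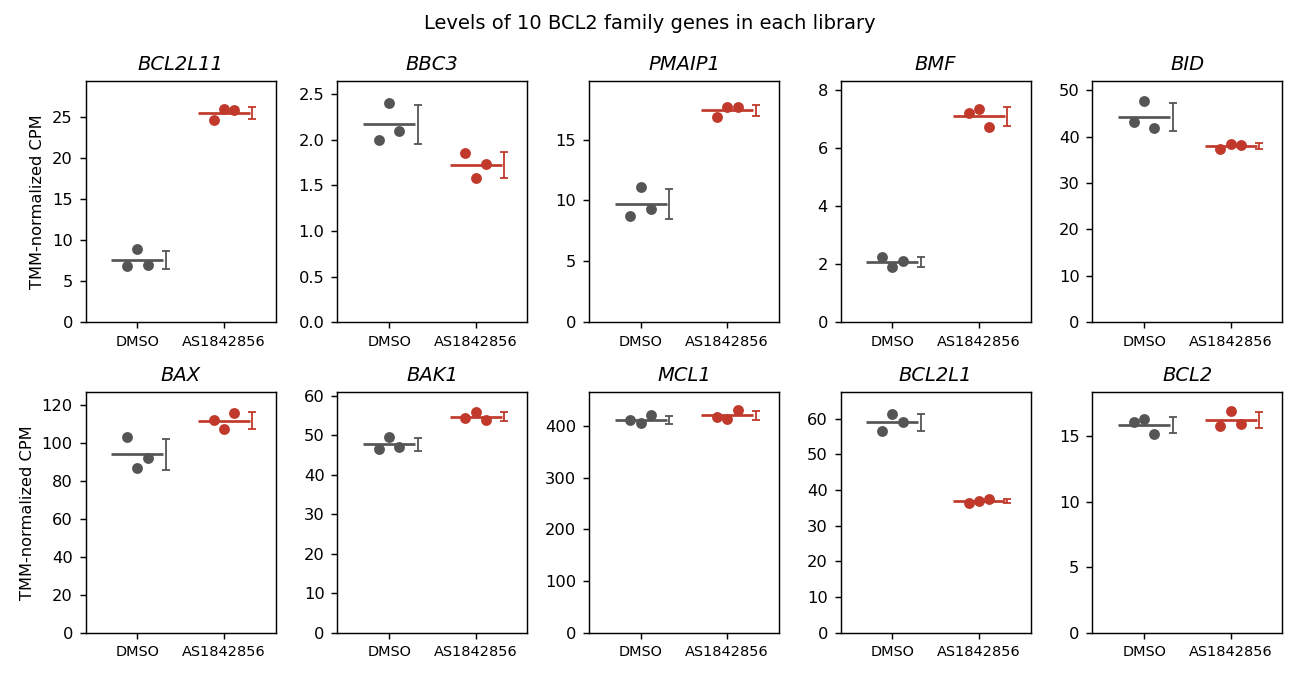
Level of each of the 10 members in TMM-normalized CPM (vertical axes from 0, a separate scale for each gene) in the 3 DMSO libraries (grey) and the 3 AS1842856 libraries (red). Points are libraries, horizontal lines are group means and the bars beside them are 1 SD. BCL2L11, BMF and PMAIP1 lie well above DMSO in every AS1842856 library, BCL2L1 lies below, and MCL1 and BCL2 overlap.

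BCL2L11 (ENSG00000153094, chromosome 2 from 111119378 to 111168447, plus strand, GRCh38) encodes BIM, which binds all the protective family members. Its level was 6.83, 8.86 and 6.94 CPM in DMSO replicates A, B and C, and 24.5, 25.9 and 25.8 CPM with AS1842856. These values rest on 129 to 150 counts in DMSO and 409 to 591 with AS1842856. The groups were far apart, although DMSO replicate B stood above the other two controls. On the log2 scale the rise was 1.77 (SE, the standard error, 0.10, 95% interval 1.57 to 1.97, adjusted p = 2.06e-42, edgeR), and 1.88 without DMSO replicate B. Only 259 of the genes tested, 1.81%, had a fitted change at or above it. The counts join all splice forms of BIM and cannot separate them. The counts of BCL2L11 are also uncertain, since use of strand in counting is not given in the sources used here. MIR4435-2HG, a long noncoding RNA gene on the opposite strand, shares 727 of its 6658 exon bases and held 170.9% as many counts. MIR4435-2HG moved the other way, from 31.4 ± 1.55 to 25.3 ± 0.907 CPM (SD, n = 3 per group).

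BMF (ENSG00000104081, chromosome 15 from 40087890 to 40108892, minus strand) encodes a BH3-only protein known from cell detachment and cytoskeletal stress. It was the least abundant member per unit of length in DMSO, with 2.23, 1.89 and 2.10 CPM from 29 to 49 counts. With AS1842856 it reached 7.20, 7.36 and 6.73 CPM, and every treated library was above every control. The rise of 1.76 on the log2 scale (SE 0.18, adjusted p = 9.23e-18, edgeR) was less precise than that of BCL2L11, with a 95% interval from 1.40 to 2.13. On deposited FPKM with a pseudocount of 1, a scale that shrinks changes of low genes, BCL2L11 changed by 1.18 and BMF by 0.74, and both stayed called.

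PMAIP1 (ENSG00000141682, chromosome 18 from 59899948 to 59904306, plus strand) encodes NOXA, a selective partner of MCL1. DMSO libraries had 8.75, 11.1 and 9.31 CPM, and AS1842856 libraries had 16.9, 17.7 and 17.7 CPM. Again the groups did not overlap and DMSO replicate B was the highest control. The rise was 0.86 on the log2 scale (SE 0.11, 95% interval 0.65 to 1.07, adjusted p = 3.16e-13, edgeR), a size that 5.39% of genes reached or passed.

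The other BH3-only members did not share this rise. BBC3 (ENSG00000105327, chromosome 19 from 47220822 to 47232766, minus strand) encodes PUMA, a BH3-only protein that binds all the protective members, and had 31 to 44 counts in each library. Its level was 2.0, 2.41 and 2.10 CPM in DMSO and 1.86, 1.58 and 1.74 with AS1842856, with no overlap between groups. The difference was not called (log2 fold change -0.33, adjusted p = 0.308, edgeR), and at this depth the interval of the fold ran from 0.549 to 1.15. BID (ENSG00000015475, chromosome 22 from 17734138 to 17774770, minus strand) links death receptors to mitochondria after it is cut by caspase-8. It fell from 43.1, 47.7 and 41.9 CPM to 37.3, 38.5 and 38.1 CPM, which is -0.21 on the log2 scale (SE 0.06, adjusted p = 0.00200, edgeR). This small change did not pass the fold of 1.2 (adjusted p = 0.894, glmTreat).

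The start regions of the 4 members past the fold of 1.2 are shown beside these changes. A forkhead motif, a sequence FOXO factors recognise, was sought as exact letters only, and variants of it were not searched. RefSeq windows reaching from 250 bases before a start to 50 bases after it were matched for 9 of the 10 members, all but MCL1, in 15 windows. The bases from -250 to -51 before the first listed start of each gene are given 5′ to 3′ on the strand of the gene (RefSeq, GRCh38.p14), with a forkhead motif GTAAACA in capitals. The stretch of BCL2L11 lies in an intron of 1 GENCODE transcript that starts further upstream. They lie at chr2:111120664-111120863 (plus strand) for BCL2L11, chr15:40108930-40109129 (minus) for BMF, chr18:59899746-59899945 (plus) for PMAIP1 and chr20:31724014-31724213 (minus) for BCL2L1.
BCL2L11: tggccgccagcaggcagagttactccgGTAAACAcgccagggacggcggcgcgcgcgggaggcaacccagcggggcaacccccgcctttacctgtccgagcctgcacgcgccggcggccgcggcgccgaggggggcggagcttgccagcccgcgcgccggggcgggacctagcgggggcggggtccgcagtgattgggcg
BMF: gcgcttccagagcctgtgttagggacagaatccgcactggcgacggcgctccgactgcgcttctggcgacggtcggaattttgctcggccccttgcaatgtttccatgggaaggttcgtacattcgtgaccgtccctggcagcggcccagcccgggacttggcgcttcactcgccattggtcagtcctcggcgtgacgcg
PMAIP1: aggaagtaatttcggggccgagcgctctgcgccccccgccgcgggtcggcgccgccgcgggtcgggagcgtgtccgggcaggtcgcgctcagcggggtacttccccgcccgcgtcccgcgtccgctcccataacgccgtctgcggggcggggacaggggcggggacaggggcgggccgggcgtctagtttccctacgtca
BCL2L1: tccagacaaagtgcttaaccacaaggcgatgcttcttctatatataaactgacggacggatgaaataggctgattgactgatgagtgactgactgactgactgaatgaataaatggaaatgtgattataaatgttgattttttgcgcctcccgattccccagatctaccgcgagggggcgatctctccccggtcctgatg

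In BCL2L11 the motif was found once, with its first base at -223 from the start. It was found, on either strand, in no window of the other members, and in 3.42% of all 35116 RefSeq windows of 300 bases. The E-box CACGTG, recognised by MYC among other factors, was found in 7.26% of all windows. It matched 4 times in the BAX window, once in that of BBC3 and in 2 of the 5 windows of BID. The letters TGACGTCA of the cAMP response element were found in none of the members' windows and in 1.85% of all windows. No match of a motif overlapped one of another motif in these windows. The printed stretch of BCL2L11 was 77.5% G and C, that of PMAIP1 76.0%, that of BMF 63.5% and that of BCL2L1 45.5%, where the median over all windows was 57.5%. A match is a run of letters and was not tested for binding.

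Both pore formers among the 10 members were slightly higher. BOK, a related pore former outside the 10, went the other way, from a mean of 61.8 CPM in DMSO to 28.3 with AS1842856. BAX (ENSG00000087088, chromosome 19 from 48954815 to 48961798, plus strand) had 103.1, 86.9 and 92.3 CPM in DMSO and 112.3, 107.3 and 116.0 CPM with AS1842856. On the log2 scale the difference was 0.24 (SE 0.05, adjusted p = 1.08e-06, edgeR). BAK1 (ENSG00000030110, chromosome 6 from 33572547 to 33580293, minus strand) went from 46.5, 49.6 and 47.0 CPM to 54.3, 56.0 and 53.9 CPM, or 0.20 on the log2 scale (SE 0.06, adjusted p = 0.00124, edgeR). In both genes every treated library was above every control. Neither passed the fold of 1.2 (adjusted p = 0.743 for BAX and 0.994 for BAK1, glmTreat).

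Among the protective members BCL2L1 alone was called. BCL2L1 (ENSG00000171552, chromosome 20 from 31664452 to 31723989, minus strand) had 56.6, 61.3 and 59.1 CPM in DMSO and 36.4, 36.9 and 37.5 CPM with AS1842856. The fall was well outside the spread of either group (-0.67 on the log2 scale, SE 0.06, 95% interval -0.79 to -0.56, adjusted p = 3.50e-23, edgeR), and 10.9% of genes fell as much or more. The antisense gene ABALON shares 1424 of its 3314 exon bases and held 3.07% as many counts. The counts join the protective long form of BCL2L1 with its short pro-apoptotic form.

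MCL1 (ENSG00000143384, chromosome 1 from 150574551 to 150579738, minus strand), a short-lived protein on which many breast cancer lines depend, was the most abundant member. It had 411.8, 405.2 and 420.5 CPM in DMSO and 418.4, 412.7 and 430.5 CPM with AS1842856, and the groups overlapped. With 6223 to 9423 counts per library the log2 fold change of 0.03 was precise (95% interval -0.04 to 0.10, adjusted p = 0.522, edgeR), which leaves room for a fold between 0.972 and 1.07. BCL2 (ENSG00000171791, chromosome 18 from 63123346 to 63320128, minus strand) also overlapped, with 16.0, 16.3 and 15.1 CPM in DMSO and 15.8, 16.9 and 15.9 CPM with AS1842856. Its log2 fold change was 0.04 (95% interval -0.15 to 0.23, adjusted p = 0.754, edgeR).

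**Figure D2:**
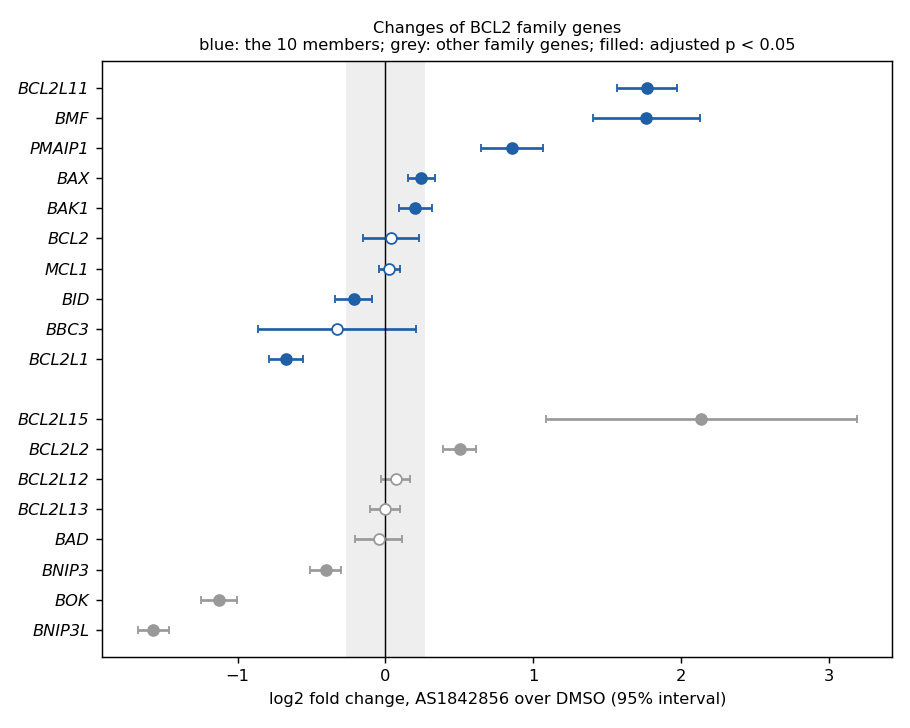
Log2 fold change of AS1842856 over DMSO (horizontal axis) with its 95% interval for the 10 members (blue) and the 8 other BCL2 family genes tested (grey), from edgeR. Filled points had an adjusted p under 0.05 and the grey band marks folds below 1.2 in either direction, so BAX, BAK1 and BID are filled but sit inside the band, while BCL2L11, BMF, PMAIP1 and BCL2L1 lie outside it.

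Levels of different genes can be compared only per length, for which the deposited FPKM were used. These values divide by a length close to all exon bases of a gene together, whatever splice forms the cells express. Ranks, shares and ratios between genes are therefore approximate, while the fold shift of a ratio between groups does not depend on that length. In DMSO the order was MCL1 (93.8 FPKM), BAX (36.1), BAK1 (21.4), BCL2L1 (17.7), BID (9.88), PMAIP1 (4.32), BCL2 (1.34), BCL2L11 (1.13), BBC3 (0.678) and BMF (0.378), as means of 3 libraries. BCL2 and BCL2L11 overlapped in DMSO, and the other neighbours did not. With AS1842856 BCL2L11 stood at 3.79 FPKM, above BCL2 at 1.37, and BMF at 1.30 FPKM stood above BBC3 at 0.539. BMF then overlapped BCL2. PMAIP1, at 7.74 FPKM, came close to BID at 8.49 but did not overlap it. The first 5 ranks, from MCL1 to BID, kept their order.

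A ratio of transcripts within a library does not depend on how libraries are scaled, so pairs of a pro-apoptotic and a protective member were also set side by side, without a test. The FPKM ratio of BCL2L11 to BCL2L1 was 0.0601, 0.0719 and 0.0585 in DMSO and 0.336, 0.349 and 0.342 with AS1842856. This 5.42-fold shift was the widest of the 8 pairs, with one partner higher and the other lower. The FPKM ratio of BCL2L11 to BCL2 went from 0.753, 0.961 and 0.811 in the controls to 2.75, 2.71 and 2.86. Where such a ratio stands relative to 1 depends on the gene lengths used. Against MCL1, BCL2L11 shifted 3.33-fold and PMAIP1 1.77-fold, and in both pairs the groups did not overlap. Even so, PMAIP1 remained far below MCL1, the partner of NOXA, at FPKM ratios of 0.0788, 0.0839 and 0.0803 with AS1842856. BAX per BCL2L1 shifted 1.90-fold, from 2.33, 1.82 and 2.0 to 3.96, 3.73 and 3.96. BAK1 per MCL1 shifted 1.13-fold, BAX per BCL2 overlapped between groups, and BBC3 per MCL1 was the only pair with lower values under AS1842856, at 0.780 of DMSO.

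**Figure D3:**
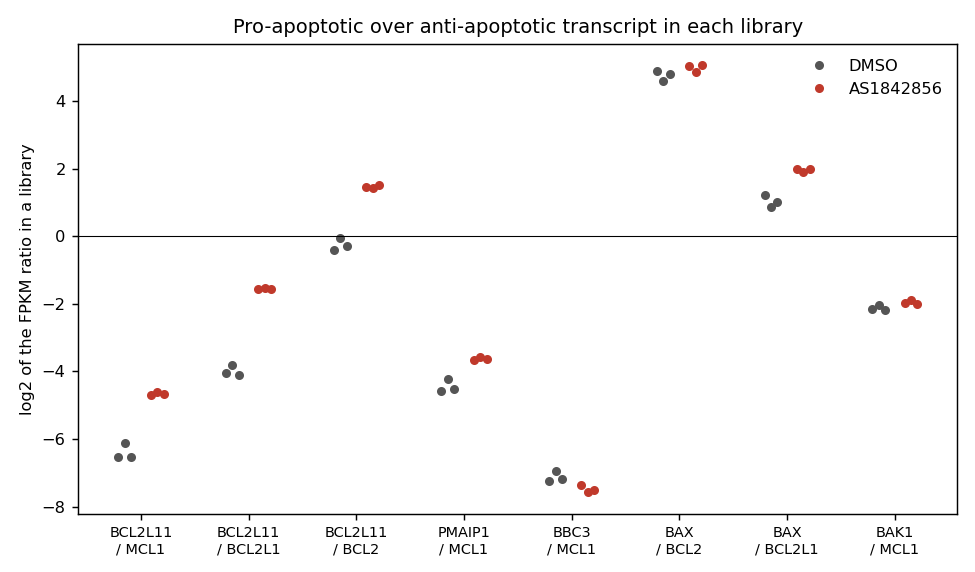
Ratio of a pro-apoptotic to a protective transcript in each library, as log2 of the ratio of FPKM (vertical axis), for 8 pairs (horizontal axis) in DMSO (grey) and AS1842856 (red), 1 point per library. The 3 pairs with BCL2L11 show the widest gaps between groups, and BAX over BCL2 overlaps.

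The same genes can be read by role, in FPKM and so with the same limit of length. The BH3-only transcripts BCL2L11, BBC3, PMAIP1 and BMF together summed to 6.50 ± 0.731 FPKM in DMSO and 13.4 ± 0.261 in the treated libraries (mean ± SD of 3). With BID added, the sum was 16.4 ± 1.37 FPKM in DMSO and 21.9 ± 0.393 with AS1842856. That is a ratio of 1.33, against 2.06 without BID. Within the sum of these 4 and BID, BID made up 60.4% in DMSO and 38.9% with AS1842856, while the share of BCL2L11 went from 6.85% to 17.4%. BAD, a further BH3-only gene outside the 10 members, is not in these sums and stood at 14.4 FPKM in DMSO and 13.98 with AS1842856, above BID in both. The protective transcripts MCL1, BCL2L1 and BCL2 summed to 112.8 ± 1.61 FPKM in DMSO and 108.0 ± 2.06 with AS1842856. MCL1 alone supplied 83.1% of that sum in DMSO and 88.5% with AS1842856. Because these are bulk libraries, fewer cells that express a gene and less of its RNA per cell cannot be told apart.

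Other genes of the family were also measured. Of 13 further BCL2 family genes, 8 passed the filter, and 2 rose and 3 fell, beside 27.6% and 28.4% of all genes tested. BNIP3L, which marks mitochondria for removal by autophagy, fell from a mean of 108.6 ± 2.50 to 36.6 ± 2.03 CPM (SD of 3 libraries), and its relative BNIP3 from 71.3 ± 1.39 to 53.8 ± 1.27. BOK, a pore former related to BAX, fell from 61.8 ± 2.86 to 28.3 ± 1.83 CPM. Their log2 fold changes were -1.57, -0.40 and -1.13. BCL2L2, which encodes the protective protein BCL-w, rose from 43.9 ± 0.856 to 62.1 ± 3.65 CPM, or by 0.50 on the log2 scale. It shares exon bases with PPP1R3E, which held 14.1% as many counts. BCL2L15 rose by 2.14 on the log2 scale but rests on 4, 3 and 4 counts in DMSO and 11, 31 and 10 with AS1842856. The rise was 1.596 without AS1842856 replicate B, and it was not called on log2(FPKM + 1) with no filter (adjusted p = 0.101, limma). BAD, BCL2L12 and BCL2L13 were not called, with log2 fold changes of -0.04, 0.07 and -0.0044. BAD overlaps GPR137 and BCL2L12 overlaps IRF3 on opposite strands, so their counts are uncertain. BIK, HRK, BCL2A1 and BCL2L14 had at most 6 counts in any library, and BCL2L10 had none.

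Genes that act at or after mitochondrial release were counted in the same way. Of 14 genes of the apoptosome and mitochondrial release, 9 rose and 1 fell, beside 27.6% and 28.4% of all genes, and the median change was 0.25 on the log2 scale. The 10 calls became 7 with DESeq2, without AS1842856 replicate B or without AS1842856 replicate C. Against the fold of 1.2 only 3 of the 14 were called, all upward. Of all genes tested, 12.1% were called upward at that fold and 28.0% in either direction. CYCS, which encodes cytochrome c and was named after its values were seen, rose by 0.32. By rule, the largest called rise was that of DIABLO (0.57, from 2.20 ± 0.329 to 3.29 ± 0.618 CPM), the antagonist of IAP proteins, and the 1 fall was that of VDAC3 (-0.12), a channel of the outer membrane. DIABLO is uncertain, since a second gene of that name shares 2006 of its 6774 exon bases, and its call was lost without DMSO replicate B, AS1842856 replicate B or AS1842856 replicate C, where the adjusted p was 0.104, 0.0635 and 0.142 (edgeR). With all libraries it was also lost in DESeq2 (adjusted p = 0.1196) and in limma on log2(FPKM + 1) with no filter (adjusted p = 0.146). APAF1 was not called (log2 fold change -0.04), nor was CASP9 (0.27, adjusted p = 0.0880, edgeR).

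Of 7 genes for inhibitor of apoptosis proteins, 5 were tested, 1 rose and 3 fell (27.6% and 28.4% of all genes did), and the median change was -0.23 on the log2 scale. BIRC3, which encodes cIAP2 and is a known NF-kB target, fell most, from 14.1 ± 2.31 to 4.84 ± 0.600 CPM (log2 fold change -1.54, adjusted p = 1.64e-24, edgeR). XIAP, a direct caspase inhibitor, rose by 0.18. Against the fold of 1.2, 2 of the 5 inhibitor genes were called, both downward, where 15.9% of all genes were. In the death receptor arm upstream of BID, 5 of 6 genes were tested, none rose and 3 fell, against 27.6% and 28.4% of all genes, with a median of -0.25. DESeq2 and limma called 2 of them, as did edgeR without DMSO replicate A. Against the fold of 1.2 only 1 of the 5 was called, downward, where 15.9% of all genes were. CFLAR, the caspase-8 inhibitor c-FLIP, fell most, from 51.0 ± 2.31 to 29.7 ± 1.48 CPM (log2 fold change -0.78, adjusted p = 1.40e-25, edgeR). CASP8 fell by 0.32, chosen after its values were seen.

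**Figure D4:**
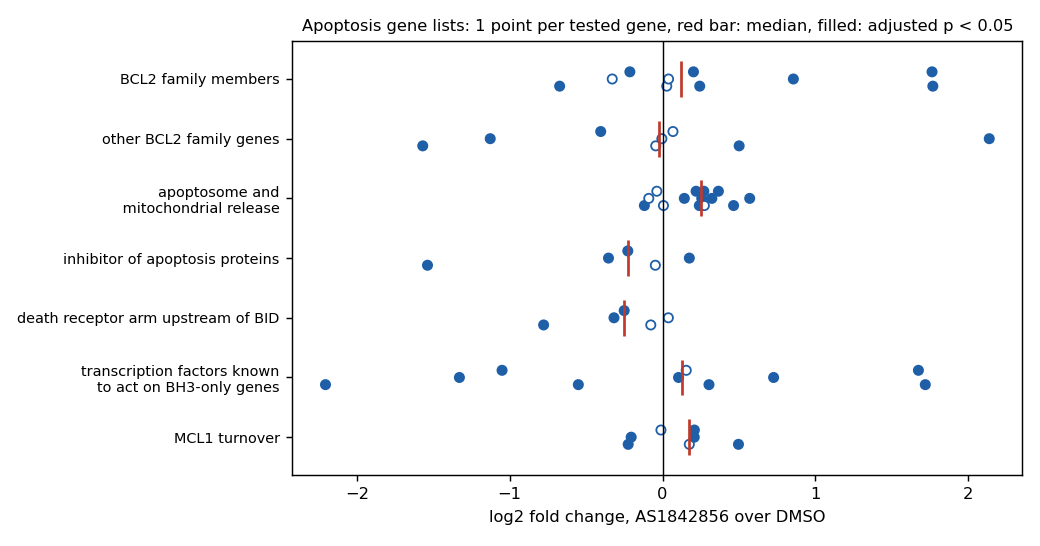
Log2 fold change of AS1842856 over DMSO (horizontal axis) of every tested gene in the members and 6 further apoptosis lists, 1 point per gene, with red bars for the medians and filled points for an adjusted p under 0.05 in edgeR. The apoptosome list lies mostly right of 0, with a median of 0.25, and the lists of inhibitor of apoptosis proteins and of the death receptor arm lie mostly left, with medians of -0.23 and -0.25.

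Transcription factors known to act on BH3-only genes moved both ways. Of 11 listed, 10 were tested, 5 rose and 4 fell, where 27.6% and 28.4% of all genes did, and the median change was 0.13. FOXO1 had the largest rise, from 4.22 ± 0.608 to 13.8 ± 0.241 CPM (log2 fold change 1.72), and FOXO3, chosen after its values were seen, rose by 1.67. TP63 had the largest fall (-2.21) but rests on 28, 21 and 15 counts in DMSO and 4, 7 and 3 with AS1842856. These are RNA levels, and the activity of the proteins was not measured here.

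Of 13023 genes with a mean of at least 1 CPM, STEAP1, COLGALT2 and PPP6R1 correlated most closely with BCL2L11 over the 6 libraries. Pearson's r of log2 CPM was 0.9999, 0.9998 and 0.9994. It takes no account of level or of size of change. Their log2 fold changes were 2.82, 1.58 and 0.22, where that of BCL2L11 was 1.77. These genes also shared the higher value of DMSO replicate B, with 2.32, 3.58 and 2.37 CPM in DMSO for STEAP1. As the 6 libraries fall into 2 groups, r mainly follows the contrast between them, and 244 genes reached 0.99 or more.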

How the data were processed

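RNA-Seq was measured in 6 BT549 libraries, grouped as DMSO or AS1842856 from their treatment label, with replicate letters A, B and C from the titles. The authors deposited raw counts per Ensembl gene, made from reads mapped with STAR, and FPKM per library, a unit scaled to the length of the gene and the depth of the library. CASAVA and Bowtie 0.12.2, with GRCh38, are listed in the submitters' processing notes. The counting tool and use of strand are not given in the sources used here. All 58735 identifiers were found in GENCODE 29, which gave symbols and positions.

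Counts were tested in R 4.3.3 with edgeR 4.0.16 (filterByExpr with a minimum count of 10 and total of 15, TMM, glmQLFit with robust estimation, glmQLFTest), with Benjamini-Hochberg adjustment over all 14338 genes and a threshold of 0.05. Standard errors were the log2 fold change divided by the square root of F. CPM are TMM-normalized. glmTreat tested a fold of 1.2. Alternatives used DESeq2 1.42.0, other scalings and filters, limma 3.58.1 on log2 FPKM (mean of at least 0.5, pseudocount 1 or 0.1), and each library left out. Scripts were tested on simulated counts. Replicate pairs differed by more than sampling noise (chi-square per degree of freedom at least 2.32). The labels do not say that libraries came from separate cultures, although the methods call them biological replicates, so p-values may measure technical spread. Counting limits cover counting error only.

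The members and lists were chosen with earlier results of these data known. All members, all tested family genes and, per further list, the largest called rise and fall were named, together with the 3 genes most correlated with BCL2L11. Lists were written from general knowledge and described by counts and medians, with no set test. The MCL1 turnover list is given with the other observations. Some genes of the lists are not reported here by name.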

Additional observations from a re-analysis of the deposited data

How the results depend on the processing

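The 7 called members were the same 7, in the same directions, in all 14 alternative settings that tested all 10 members. The filter on a mean of at least 50 counts removed BBC3 and also called 7. The number of members past the fold of 1.2 was 4 in every edgeR alternative at that fold and 3 at a fold of 1.5, where BCL2L1 was lost. It was not recomputed with DESeq2 or limma. Over all genes, between 6523 and 8030 were called with all libraries and between 7427 and 7678 with each left out. In the MCL1 turnover list 5 genes were called in the main test, 3 by DESeq2, 2 by limma on log2(FPKM + 1) with no filter, and 3 to 5 with each library left out (3 without AS1842856 replicate B). BTRC lost its call in 4 alternatives (adjusted p between 0.0575 and 0.0832), of which 2 left out DMSO replicate C or AS1842856 replicate B. BCL2L13, never called, was -0.0044 in the main test and ranged from -0.0358 to 0.0172 with each library left out, above 0 only without DMSO replicate B. On the log2(FPKM + 1) scale the pseudocount shrinks low genes: the shift of BCL2L11 was 1.15 against MCL1, 1.81 against BCL2L1 and 1.16 against BCL2, and that of BBC3 against MCL1 was -0.15. With the replicate letter as a block 7862 genes were called in place of 8029. Same-letter libraries did not deviate together (correlations 0.0098, -0.0192 and -0.0128), so the letters were not taken to pair the samples. Depth limits BBC3 and BMF most, with 29 to 49 counts in each DMSO library.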

Other observations

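MCL1 protein is removed quickly, and its level is set in part by enzymes that add or remove ubiquitin. Of 7 genes listed for MCL1 turnover all 7 were tested, 3 rose and 2 fell, beside 27.6% and 28.4% of all genes tested, and the median change was 0.18 on the log2 scale. DUSP6, a phosphatase that shuts off ERK, had the largest rise, from 12.5 ± 1.998 to 17.5 ± 0.549 CPM (SD, n = 3 per group). BTRC, a subunit of a ubiquitin ligase, had the largest called fall, from 28.6 ± 1.33 to 24.5 ± 1.78 CPM. HUWE1, the ligase also known as MULE, fell from 237.7 ± 19.5 to 206.4 ± 4.24 CPM. Other ligase genes of the list went the other way, as FBXW7 and MARCHF5 were called higher, by 0.21 each on the log2 scale. TRIM17 was not called. USP9X, which removes ubiquitin from MCL1, had 188.1 ± 6.996 and 187.0 ± 9.86 CPM. All genes of this list other than DUSP6 and BTRC were named after their values were seen. Protein levels were not measured here.

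When BCL2L2 is added to MCL1, BCL2L1 and BCL2, the summed protective transcripts were 123.2 ± 1.598 FPKM in DMSO and 122.8 ± 2.65 with AS1842856, so that the totals of the groups overlapped while their makeup differed.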
